A study of Drosophila melanogaster with 27 samples.

Results

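The genes followed here are piwi, aub, AGO3, krimp, vas, spn-E, armi and zuc, a set of 8 core genes of the Drosophila piRNA pathway, chosen by symbol and measured as reads per gene in larval imaginal discs. Of the 8 symbols 7 were matched among the 15348 gene rows, and all 7 passed the filter on low counts. The symbol vas could not be matched and is not analysed here.

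Piwi-interacting RNAs (piRNAs) are small RNAs that guide Argonaute proteins of the PIWI clade to transposon transcripts. The pathway is known mainly from the gonads: long precursors are cut into piRNAs at the mitochondrial surface, PIWI proteins carrying them slice transposon RNA in a perinuclear body called nuage (the ping-pong cycle), and Piwi itself silences transposons in the nucleus. The discs studied here are somatic epithelia that form the adult eye, antenna, leg and wing, whereas the pathway's genes are known as expressed chiefly in the gonads.

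For each library discs were taken from 35 to 50 larvae, reared at 25 °C and wandering in their last instar. All genotypes carried hh-Gal4 and UAS-GFP, so that transgenes were driven in the posterior compartment, the domain of hedgehog, while the rest of each disc was not targeted. The 5 hairpin genotypes had the tumour transgenes UAS-scrib-RNAi and UAS-Ras[v12] with 1 further TRiP hairpin. Those titled sd had 2 eye-antennal and 2 leg libraries (days 7 to 8). The labels of the leg libraries name the sd hairpin JF02514, while those of the eye-antennal libraries name the kay hairpin HMS00254. The others were CG6272 (HMS00057, 2 eye-antennal and 2 leg, day 8) and tai (GL00514, 2 eye-antennal and 1 leg, day 10). There were also Stat92E (HMS00035, 1 eye-antennal and 2 leg, day 8) and kay (HMS00254, 1 eye-antennal, day 10). Tumour discs had the same tumour transgenes with a luciferase hairpin (2 eye-antennal, 2 leg and 2 wing libraries, replicate 1 on day 9 and replicate 2 on day 11). Control discs had the luciferase hairpin without the tumour transgenes (2 libraries each of the 3 discs, day 5). CG6272 and Stat92E discs were taken on the same day, as were tai and kay discs. For tai and kay against tumour discs, day 10 lay between the tumour days 9 and 11, and the part of age was not tested. In every other comparison with tumour or control discs age at dissection differed with genotype, and age and genotype cannot be told apart. Replicates were independent dissections.

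Between 11.7 and 16 M reads per library were assigned to genes. Reads aligned to several places enter no gene count and made up 54.4% to 76.1% of the alignment lines in tumour libraries and 15.8% to 22.9% in control libraries, and the part of this difference in the results below was not tested. In tumour discs scrib averaged 245 CPM (counts-per-million, scaled by library size and TMM factor), against 368 CPM in control discs, and Ras85D 893 CPM, against 287 CPM. Of the hairpin targets, CG6272 (listed as Irbp18) and Stat92E fell relative to tumour discs (log2 change -2.60 ± 0.23, adjusted p = 4.3e-06, and -0.39 ± 0.07, adjusted p = 0.0032). The targets sd (-0.11 ± 0.12, adjusted p = 0.57), tai (-0.25 ± 0.13, adjusted p = 0.35) and kay (-1.37 ± 0.45, adjusted p = 0.22) did not pass the threshold. The eye-antennal libraries with sd in their titles carry a genotype label with the kay hairpin. These genotypes are called here by their titles.

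Tumour discs were compared with control discs to ask which genes of the pathway differ in a somatic tumour. Of the 7 genes, AGO3, spn-E, piwi and zuc were higher and krimp and armi lower in tumour discs as the mean over the 3 discs, and aub did not pass the test. That is 6 of 7 at an adjusted p under 0.05 (edgeR's quasi-likelihood test, Benjamini-Hochberg adjustment over 9814 genes), where 52.8% of all genes tested passed, 28.3% as higher and 24.5% as lower in tumour discs. The median log2 change of the 7 genes was 0.64 and that of all genes tested 0.03. In whole discs, a change in the share of cells that express a gene and a change of RNA per cell cannot be told apart.

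AGO3, the PIWI-clade Argonaute that takes up mostly sense piRNAs in the ping-pong cycle, was the member with the largest rise. Its lowest, median and highest values were 6.92, 9.45 and 12.1 CPM in tumour libraries, against 1.99, 2.65 and 2.75 CPM in control libraries. Each tumour library was above each control library. The log2 change was 1.92 ± 0.17 (SE), which is 3.79-fold (adjusted p = 1.8e-07). Of AGO3's exon bases 5.2% are shared on the same strand with a copy of the transposon INE-1.

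piwi, which encodes the nuclear Argonaute of the pathway and is also active in the somatic cells of the ovary, rose less. It had 2.91, 4.59 and 5.20 CPM as lowest, median and highest values in tumour libraries, against 0.919, 1.95 and 2.88 CPM in control libraries. Reads of piwi numbered 40 to 66 in tumour and 11 to 38 in control libraries, the 11 being in wing replicate 1. The ranges did not overlap, but the lowest tumour library, from leg discs on day 11, was close to the highest control library, from eye-antennal discs. The log2 change was 1.19 ± 0.27 (2.28-fold, adjusted p = 0.0017).

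aub encodes the germline partner of AGO3 in the ping-pong cycle, which binds mostly antisense piRNAs. Its lowest, median and highest values were 0.857, 1.74 and 2.03 CPM in tumour libraries, against 0.953, 1.61 and 2.40 CPM in control libraries. These values rest on 10 to 26 reads in tumour libraries and 12 to 36 reads in control libraries, and the ranges overlapped throughout. The log2 change was 0.04 ± 0.39 (adjusted p = 0.96), an error that leaves changes of either sign within reach.

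The other nuage genes moved in opposite directions. spn-E, an RNA helicase with a Tudor domain that is needed for ping-pong in the germline, had 22.2, 31.3 and 40.2 CPM as lowest, median and highest values in tumour libraries, against 6.97, 8.68 and 14.5 CPM in control libraries. All tumour libraries lay above all control libraries, and the log2 change was 1.72 ± 0.14 (3.30-fold, adjusted p = 7.0e-08). krimp, the Tudor-domain scaffold that brings Aub and AGO3 together in nuage, had 1.75, 2.44 and 3.00 CPM in tumour libraries, against 6.21, 8.23 and 16.2 CPM in control libraries. All tumour libraries lay below all control libraries, and krimp fell by 1.97 ± 0.19 on the log2 scale (adjusted p = 6.7e-07), to 0.256 of the control level.

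armi and zuc act at the mitochondrial surface. armi, an RNA helicase that feeds precursors into piRNA production, had 79.7, 86.2 and 94.7 CPM as lowest, median and highest values in tumour libraries, against 100.4, 117 and 125 CPM in control libraries. The ranges did not overlap, the decrease was small and its error smaller: -0.42 ± 0.05 (adjusted p = 2.6e-06), or 0.747 of the control level. Of armi's exon bases 99.6% are shared on the same strand with CG46463 in the BDGP6 annotation, a symbol not found among the counted genes, so that reads of both may stand under armi. zuc, the endonuclease that cuts piRNA precursors, had 7.35, 9.53 and 11.5 CPM in tumour libraries, against 3.56, 5.93 and 8.56 CPM in control libraries. Its ranges overlapped, since the tumour eye-antennal libraries lay under the control wing libraries, and the log2 change was 0.64 ± 0.14 (1.56-fold, adjusted p = 0.0014).

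**Figure D1:**
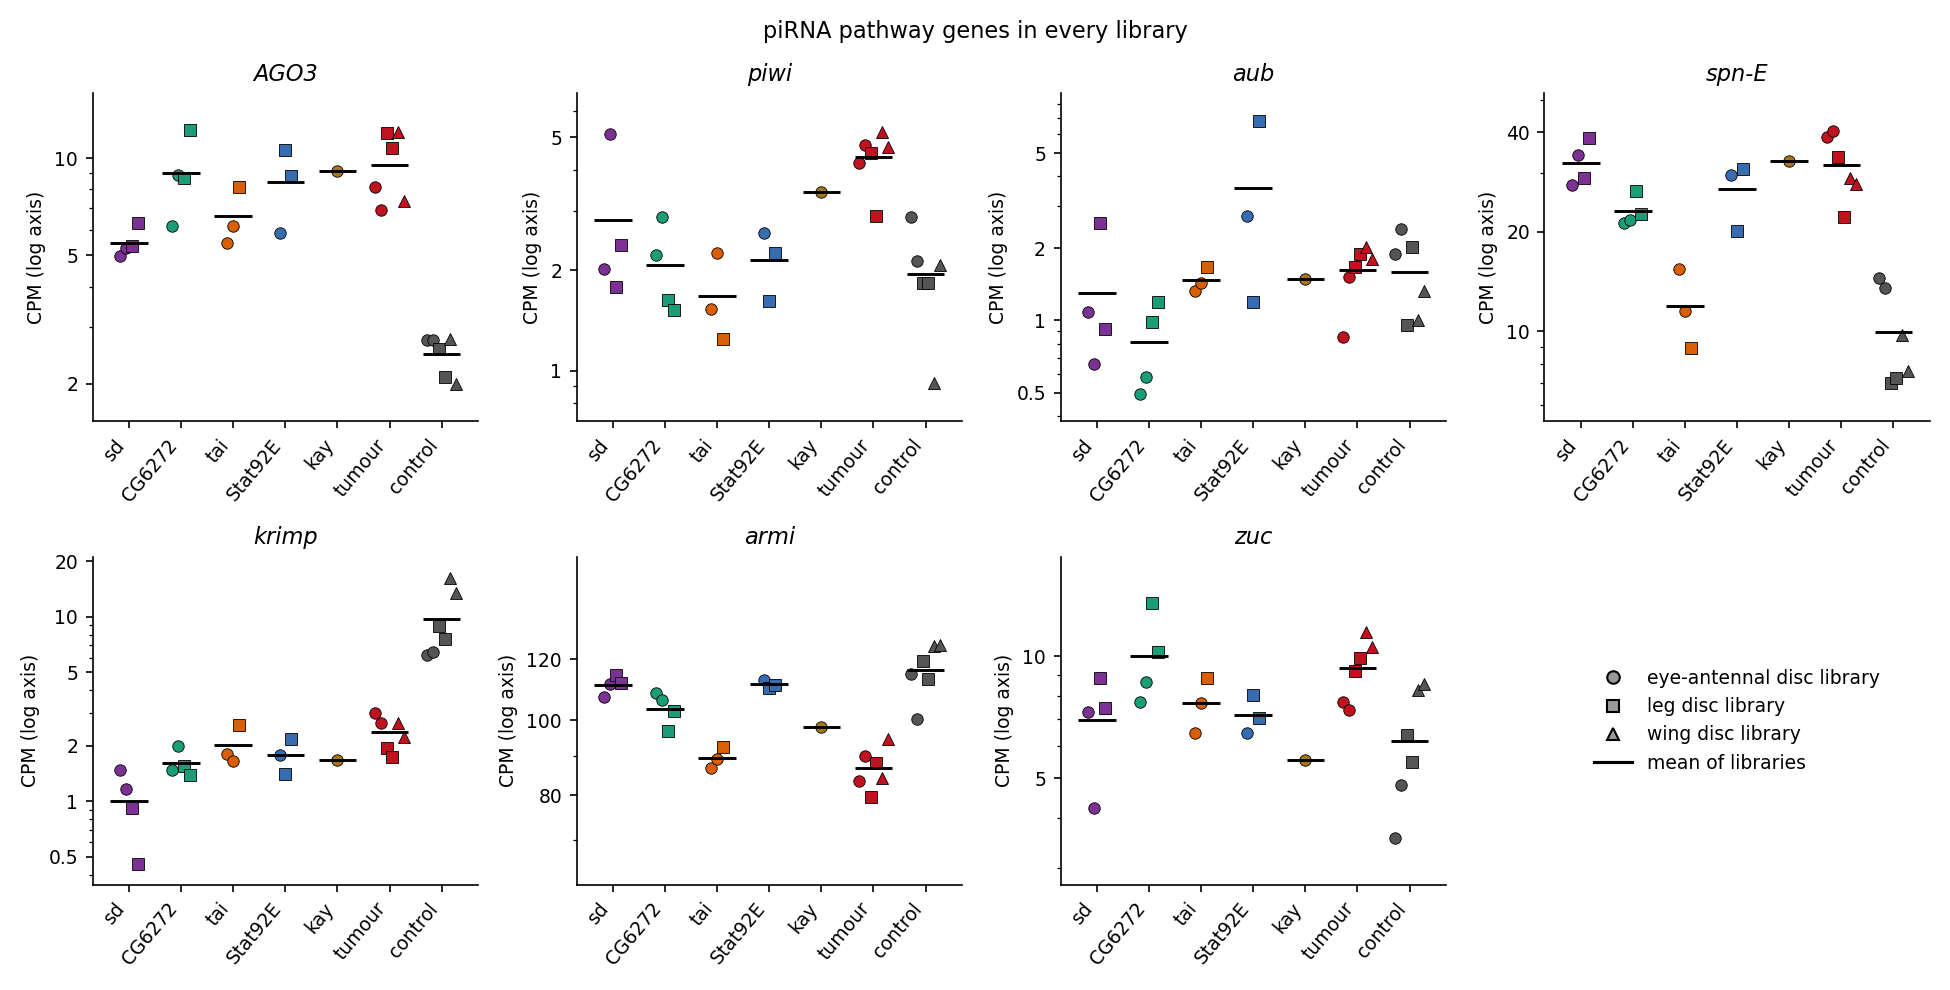
CPM of the 7 genes (log axis) in all 27 libraries, grouped by genotype, with 1 point for each library, its shape giving the disc, and a line at the genotype's mean. AGO3 and spn-E lie higher and krimp and armi lower in the 6 tumour libraries than in the 6 control libraries, and spn-E in the 3 libraries titled tai lies between 8.91 and 15.4 CPM, near the control libraries.

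Counting libraries alone, 5 of the 7 genes (AGO3, piwi and spn-E higher, krimp and armi lower) had tumour and control libraries that did not overlap, where 26.5% of all genes tested had none. The main fit counts discs of 1 dissection as independent, so its errors and adjusted p may be too small. The 6 calls held under each of the 34 alternatives run for this comparison, including the omission of each library in turn and the block by dissection. Over the alternatives the highest adjusted p was 9.9e-05 for AGO3, 6.1e-05 for spn-E and 1.5e-05 for krimp. It was 0.0010 for armi, 0.022 for piwi and 0.024 for zuc. The lowest and highest log2 changes over the alternatives were 1.79 and 2.01 for AGO3, 1.03 and 1.42 for piwi, and -2.01 and -1.92 for krimp.

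Levels between genes were compared per kb of exon, from the exon models of BDGP6. In tumour discs armi averaged 20.8 CPM per kb, zuc 8.15, spn-E 6.82, AGO3 3.00, piwi 1.42, krimp 0.931 and aub 0.540 CPM per kb. In control discs the averages were 28.0 CPM per kb for armi, 5.38 for zuc, 3.83 for krimp, 2.12 for spn-E, 0.779 for AGO3, 0.632 for piwi and 0.531 for aub. In control discs only armi and zuc of the 7 genes stood above krimp, and in tumour discs only aub stood below it. The Argonautes of the other small RNA pathways were far more abundant in both: AGO2, of the siRNA pathway, averaged 132 CPM per kb in tumour and 109 in control discs, and AGO1, of the miRNA pathway, 55.2 CPM per kb in tumour and 68.3 in control discs. On the log2 scale AGO2 changed by 0.28 ± 0.06 (adjusted p = 0.0011) and AGO1 by -0.30 ± 0.08 (adjusted p = 0.0032).

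**Figure D2:**
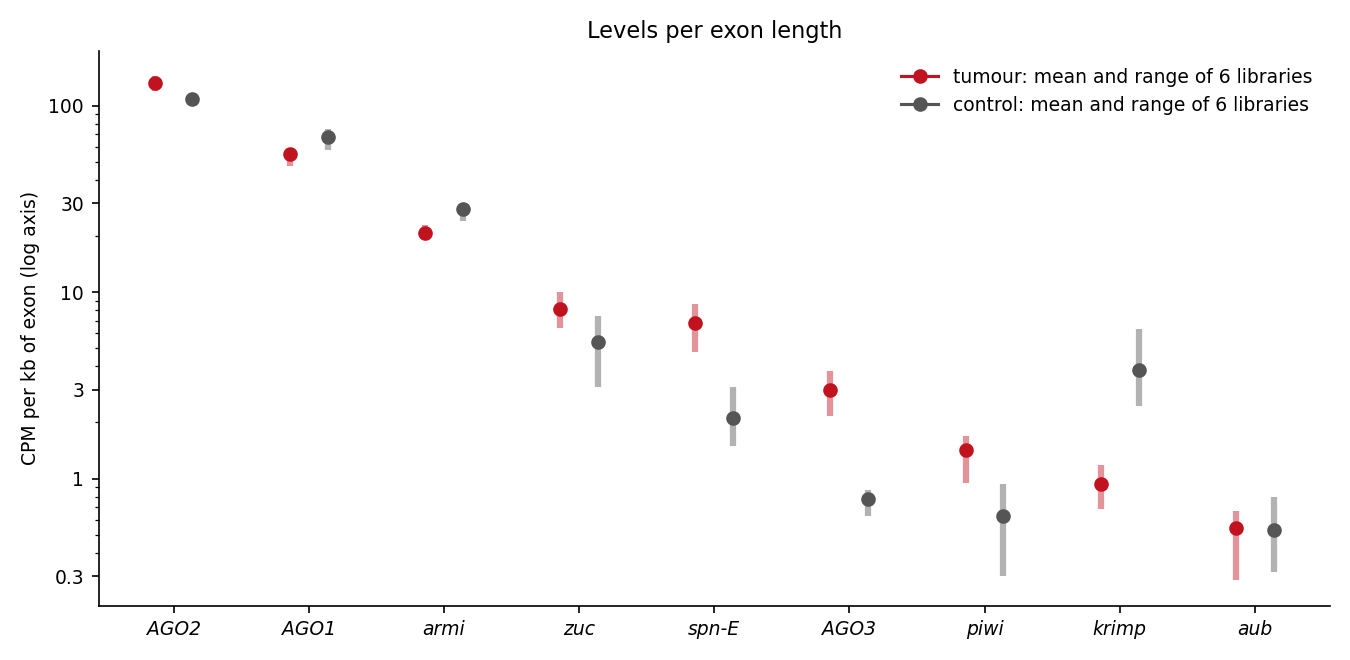
Mean (point) and range (bar) of CPM per kb of exon (log axis) over the 6 tumour and the 6 control libraries, for AGO2 and AGO1 and the 7 piRNA genes in the order of their tumour level. AGO3 averaged 3.00 CPM per kb in tumour discs and 0.779 in control discs, both far under AGO1 and AGO2.

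The comparison was repeated within each kind of disc to ask where these differences occur. AGO3 and spn-E were higher and krimp and armi lower in tumour discs in each of the 3 kinds of disc. In eye-antennal discs 5 of 7 genes passed (29.2% of all genes), in leg discs 5 of 7 (38.3% of all genes) and in wing discs 5 of 7 (30.4% of all genes), the fifth being zuc in eye-antennal and leg discs and piwi in wing discs. AGO3 changed by 1.46 ± 0.28 in eye-antennal, 2.28 ± 0.29 in leg and 2.03 ± 0.29 in wing discs on the log2 scale, and spn-E by 1.49 ± 0.23, 1.97 ± 0.24 and 1.71 ± 0.23. In eye-antennal discs the zuc call was lost without control replicate 1 or either tumour replicate (highest adjusted p of all alternatives 0.16) and the armi call without tumour or control replicate 1 (0.13). In leg discs the zuc call was lost without any 1 of the 4 libraries or without tumour eye-antennal replicate 2 (0.18), and in wing discs the piwi call without tumour or control replicate 1 (0.12). In a fit of the 4 libraries of a disc alone, the calls of armi were lost in each disc, and so were those of krimp and zuc in eye-antennal, zuc in leg and piwi in wing discs.

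The values of krimp are given by disc. It had 3.00 and 2.67 CPM in tumour eye-antennal libraries, against 6.21 and 6.41 CPM in control eye-antennal libraries. It had 1.94 and 1.75 CPM in tumour leg libraries, against 8.88 and 7.58 CPM in control leg libraries, and 2.65 and 2.24 CPM in tumour wing libraries, against 16.2 and 13.4 CPM in control wing libraries. The tumour libraries of all discs fell in a narrow band, while the control wing libraries stood well above the other control libraries. The log2 changes were -1.15 ± 0.33 (eye-antennal), -2.15 ± 0.34 (leg) and -2.60 ± 0.34 (wing), with adjusted p = 0.015, 0.00018 and 5.3e-05. The eye-antennal call was lost when any of its 4 libraries was left out (highest adjusted p of all alternatives 0.083).

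By edgeR none of the 7 genes passed the joint test of a difference of the tumour effect among discs, which 3.28% of all genes passed. At an unadjusted p under 0.05 krimp alone passed (adjusted p = 0.18), and by DESeq2 0 of 7 did. With dissection as a block (limma-voom, same-numbered discs of 1 genotype taken as 1 dissection), krimp passed (adjusted p = 0.020) and the other 6 genes did not. Among control discs, spn-E (adjusted p = 0.024), zuc (0.036) and krimp (0.038) differed by kind of disc, 3 of 7 genes where 11.8% of all genes passed. spn-E had 14.5 and 13.5 CPM in control eye-antennal libraries, 6.97 and 7.24 CPM in leg and 9.77 and 7.60 CPM in wing libraries. Each of these 3 calls was lost without either control eye-antennal library, with highest adjusted p of 0.15 for spn-E, 0.21 for zuc and 0.28 for krimp over all alternatives.

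**Figure D3:**
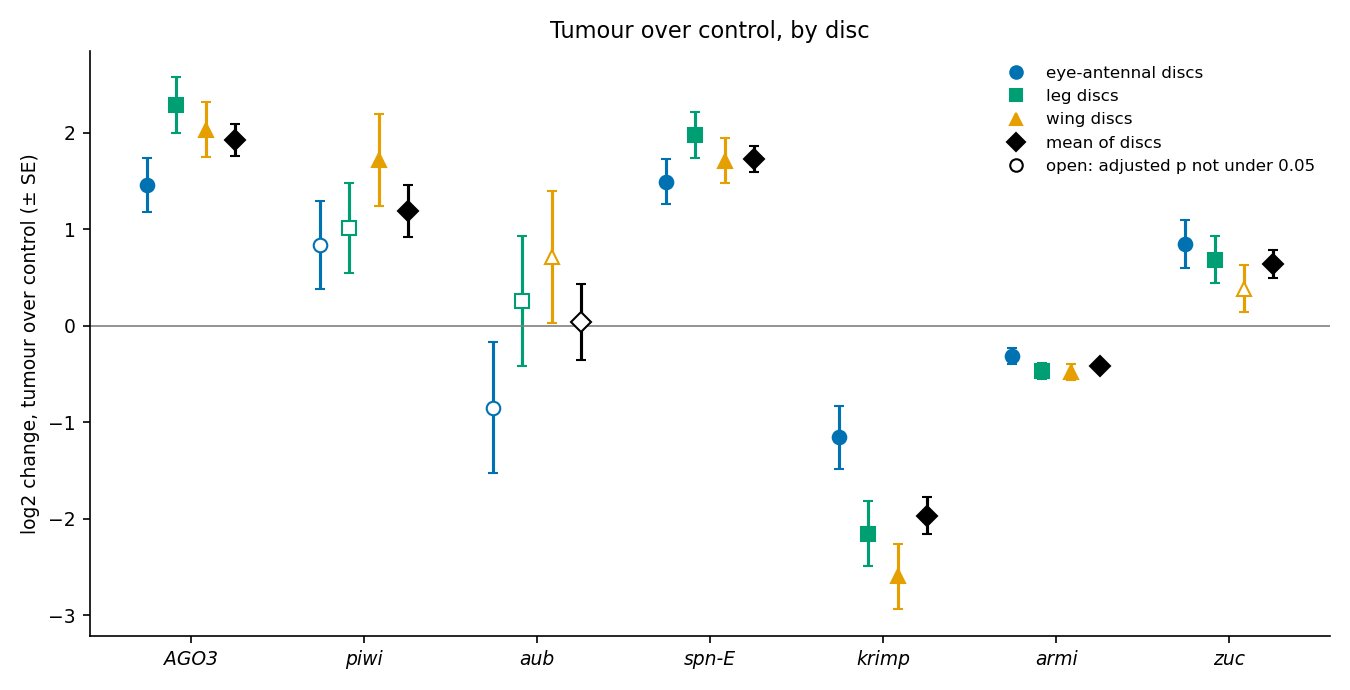
Log2 change of each gene in tumour over control discs with its SE, in eye-antennal, leg and wing discs and as the mean of the 3, with filled symbols for an adjusted p under 0.05. AGO3 and spn-E lie above 0 and krimp and armi under 0 in each disc, and krimp spans -1.15 in eye-antennal discs to -2.60 in wing discs.

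Tumours of day 11 were set against those of day 9. By edgeR none of the 7 genes passed (12.3% of all genes did), nor by DESeq2, and 1, armi, had an unadjusted p under 0.05 (adjusted p = 0.12). The changes lay between -0.37 ± 0.20 for AGO3 and 0.26 ± 0.57 for aub on the log2 scale. AGO3 had 6.92, 10.8 and 7.35 CPM on day 11, against 8.14, 12 and 12.1 CPM on day 9, in eye-antennal, leg and wing discs. Day and replicate number coincide here, so each day stands for a single dissection. The test counts the discs of that dissection as independent, and day and dissection cannot be told apart.

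The hairpin genotypes were compared with tumour discs of the same kinds, to ask which of the tumour's differences depend on the targeted factor. They were also compared with control discs, and since they share the tumour and control libraries, the values are given side by side.

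In tumours titled sd, after the Hippo pathway's DNA-binding factor Scalloped, AGO3 and krimp were lower and armi higher than in tumour discs. These are 3 of 7 genes where 21.3% of all genes passed. AGO3 had 4.97 and 5.26 CPM in the eye-antennal and 5.34 and 6.29 CPM in the leg libraries titled sd, against 8.14 and 6.92 CPM in eye-antennal and 12 and 10.8 CPM in leg tumour libraries. All 4 were lower than each tumour library and higher than each control library. The log2 change was -0.76 ± 0.19 against tumour discs (adjusted p = 0.012) and 1.11 ± 0.20 against control discs (adjusted p = 0.00065). Without tumour eye-antennal replicate 1 or leg replicate 1 titled sd the call against tumour discs was lost (highest adjusted p 0.051).

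krimp had 1.48 and 1.17 CPM in eye-antennal and 0.926 and 0.460 CPM in leg libraries titled sd, on 6 to 19 reads. All 4 were lower than each tumour library. The log2 change was -1.24 ± 0.24 against tumour discs (adjusted p = 0.0026) and -2.90 ± 0.25 against control discs (adjusted p = 9.6e-07). In a fit of the compared libraries alone the call against tumour discs was lost (adjusted p = 0.068). With leg discs alone, where title and genotype label name the same hairpin, the changes against tumour discs were -0.97 for AGO3 (adjusted p = 0.028) and -1.39 for krimp (adjusted p = 0.015).

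armi stood at 107 to 114 CPM in libraries titled sd, against 79.7 to 90.0 CPM in eye-antennal and leg tumour libraries and 100.4 to 119 CPM in those of control discs. The libraries titled sd lay above the tumour libraries and within the control range, with log2 changes of 0.38 ± 0.06 against tumour discs (adjusted p = 0.00041) and -0.01 ± 0.06 against control discs (adjusted p = 0.93). spn-E stood at 27.7 to 38.4 CPM, against 22.2 to 40.2 CPM in those tumour libraries, with a log2 change of -0.04 ± 0.16 (adjusted p = 0.90). The summed level of fat body markers was 35.4 to 11850 CPM in libraries titled sd, against 46.8 to 290.1 CPM in the 6 tumour libraries, and that of hemocyte markers 38.8 to 158 CPM, against 156 to 333 CPM. Their part in these values was not tested.

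In CG6272 tumours, whose hairpin targets a C/EBP-family bZIP protein, armi was higher and spn-E lower than in tumour discs, 2 of 7 genes where 14.2% of all genes passed. With dissection as a block, armi alone passed (adjusted p = 0.019). armi had 109 and 106 CPM in eye-antennal and 96.8 and 102.7 CPM in leg libraries of CG6272, all above the tumour libraries, a change of 0.28 ± 0.06 (adjusted p = 0.0046). In a fit of the compared libraries alone that call was lost (adjusted p = 0.065), and against the Stat92E libraries, which share with CG6272 and kay libraries a second form of file name, the change was -0.11 (adjusted p = 0.31). spn-E had 21.2 and 21.8 CPM in eye-antennal and 26.6 and 22.6 CPM in leg libraries, against 38.6 and 40.2 CPM in eye-antennal and 33.6 and 22.2 CPM in leg tumour libraries. Its change of -0.53 ± 0.16 (adjusted p = 0.037) was lost under 10 of 35 alternatives. Among them were the omission of any of the 4 CG6272 libraries and the comparison with Stat92E in place of tumour libraries. When 1 library was left out the highest adjusted p was 0.20. The leg tumour library of day 11 lay among the CG6272 libraries. piwi had 1.52 to 2.90 CPM, against 2.91 to 4.76 CPM in tumour libraries of the same discs, and its change of -1.02 ± 0.33 did not pass (adjusted p = 0.051), while it did by the DESeq2 test (adjusted p = 0.023). AGO3 had 6.17 to 12.2 CPM, against 6.92 to 12 CPM in tumour libraries of the same discs, ranges that overlapped (-0.06 ± 0.19, adjusted p = 0.87). The summed level of fat body markers was 169 to 2983 CPM in CG6272 libraries, against 46.8 to 290.1 CPM in the 6 tumour libraries, and that of hemocyte markers 225 to 606 CPM, against 156 to 333 CPM. Their part in these values was not tested.

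In tumours titled tai, after the ecdysone receptor coactivator Taiman, 1 of 7 genes passed, spn-E, where 2.72% of all genes passed. spn-E had 15.4 and 11.5 CPM in the eye-antennal and 8.91 CPM in the leg libraries titled tai, against 38.6 and 40.2 CPM in eye-antennal and 33.6 and 22.2 CPM in leg tumour libraries. Control libraries had 14.5 and 13.5 CPM in eye-antennal and 6.97 and 7.24 CPM in leg discs. The 3 libraries lay below each tumour library and within or near the control range. The log2 change was -1.60 ± 0.19 against tumour discs, or 0.331 of their level (adjusted p = 0.00035), and 0.14 ± 0.18 against control discs (adjusted p = 0.60). In a fit of the compared libraries alone the call against tumour discs was lost (adjusted p = 0.10), and under all other alternatives it held. piwi had 1.53 and 2.26 CPM in eye-antennal and 1.25 CPM in leg libraries titled tai, all below the tumour libraries. Its change of -1.40 ± 0.39 did not pass (adjusted p = 0.069), while it passed by the DESeq2 test (adjusted p = 0.015). AGO3 (5.46 to 8.16 CPM) and krimp (1.66 to 2.58 CPM) changed by -0.43 ± 0.22 (adjusted p = 0.36) and -0.11 ± 0.26 (adjusted p = 0.89).

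In Stat92E tumours, whose hairpin targets the transcription factor of the JAK/STAT pathway, armi alone passed against tumour discs, 1 of 7 genes where 13.3% of all genes passed. armi had 113 CPM in the eye-antennal and 110.2 and 111 CPM in the leg libraries, all above the tumour libraries (0.39 ± 0.06, adjusted p = 0.0015). That call was lost in a fit of the compared libraries alone (adjusted p = 0.076), and against the CG6272 libraries, of the same form of file name, the change was 0.11 (adjusted p = 0.31). aub varied most here: it had 2.73 CPM in the eye-antennal and 1.19 and 6.82 CPM in the leg libraries, the last being its highest value in the series, on 97 reads. That library also held 93 reads of bam, a germline differentiation gene, and 13 of pgc, a gene of the germ cells, while the tumour libraries held 1 to 18 reads of bam and 0 to 3 of pgc. Both were chosen after their values were seen. On the opposite strand pgc shares 46.95% of its exon bases with T3dh, and bam 11.51% with CG11854. The strand setting of the counts is not given. Of the other germline markers zpg had no read in any Stat92E library, and the summed level of the 14 markers was 361 to 397 CPM in Stat92E libraries, against 293 to 389 CPM in tumour libraries. The remaining markers are not given singly for that library, and the part of germline cells in the value of aub was not tested. The change of aub was 1.18 ± 0.52 (adjusted p = 0.14) and 0.31 without that library (adjusted p = 0.71). It passed without leg replicate 1 of Stat92E (1.56, adjusted p = 0.035) and against the CG6272 libraries, of the same form of file name (2.10, adjusted p = 0.035).

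The single kay library, named after the Fos protein Kayak, had 9.12 CPM of AGO3, 3.43 of piwi, 32.7 of spn-E and 1.68 CPM of krimp. None of the 7 genes passed against eye-antennal tumour libraries by edgeR, where 0.183% of all genes passed, and none at an unadjusted p under 0.05, by DESeq2 or by limma-voom with the block.

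**Figure D4:**
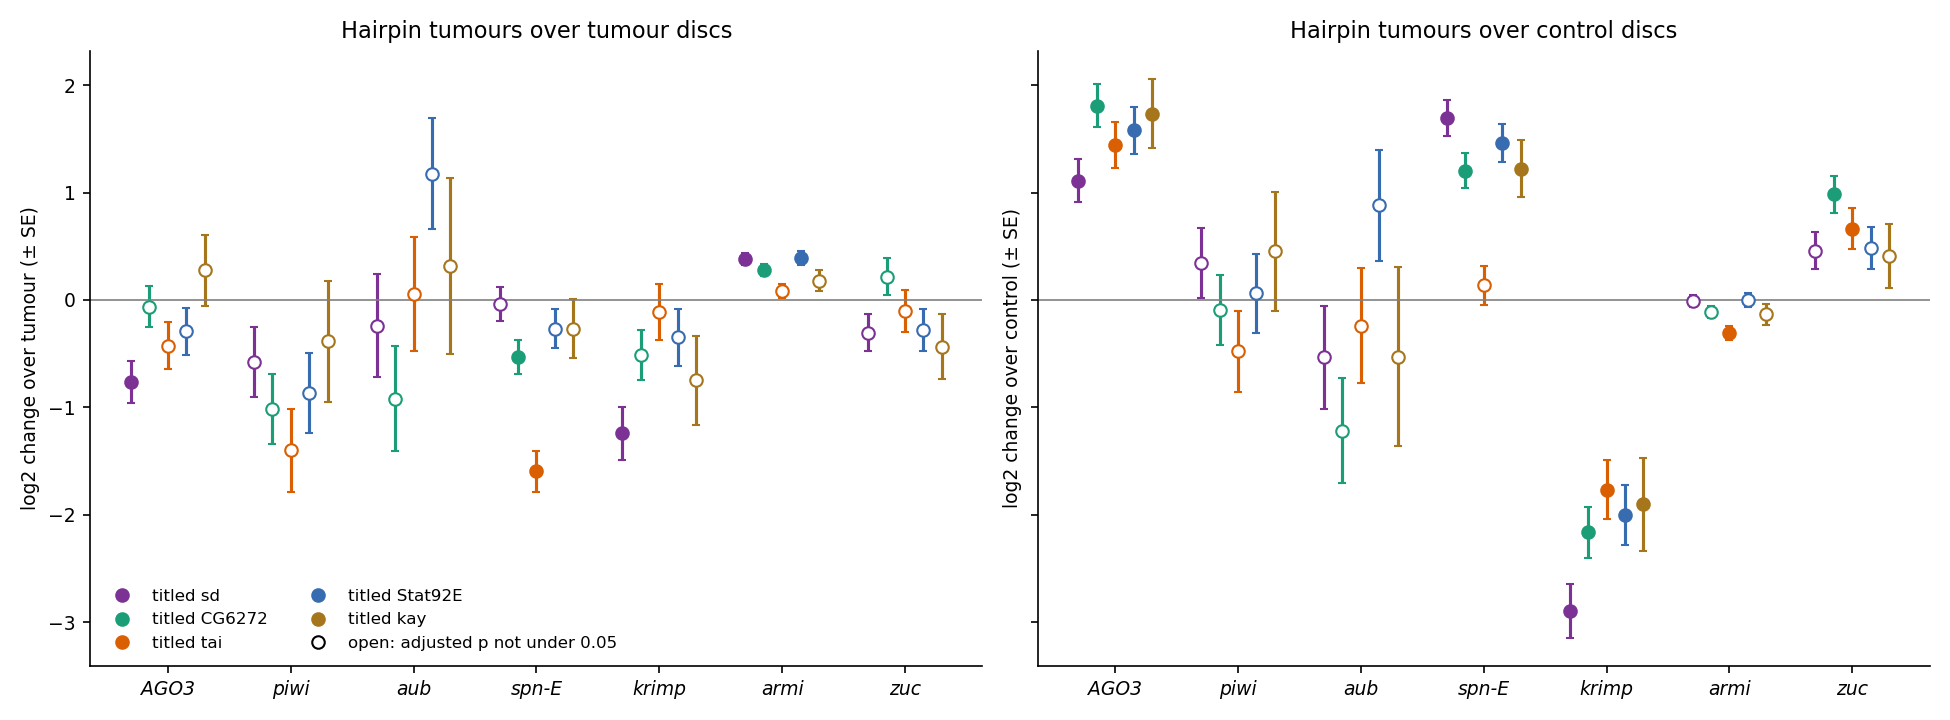
Log2 change of each gene with its SE in the 5 hairpin genotypes over tumour discs (left) and over control discs (right), with filled circles for an adjusted p under 0.05. Over control discs AGO3 is higher and krimp lower in each genotype, kay being 1 library, while spn-E of tumours titled tai stands at -1.60 over tumour discs and 0.14 over control discs.

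Against control discs, AGO3 was higher and krimp lower in the 4 hairpin genotypes with replicates and in the single kay library, which is assumed to vary like the other groups. For AGO3 the log2 changes were 1.11 in sd, 1.81 in CG6272, 1.44 in tai, 1.58 in Stat92E and 1.74 in kay tumours. For krimp they were -2.90 in sd, -2.16 in CG6272, -1.77 in tai, -2.0 in Stat92E and -1.90 in kay tumours. spn-E was higher in sd (1.69), CG6272 (1.20), Stat92E (1.46) and kay tumours (1.22) and did not pass in tai tumours. zuc passed in CG6272 (0.98 ± 0.17, adjusted p = 0.00038) and tai tumours (0.66 ± 0.19, adjusted p = 0.015), armi in tai tumours (-0.31 ± 0.06, adjusted p = 0.0018), and piwi and aub in none. The zuc call in tai tumours was lost under 4 alternatives (highest adjusted p 0.078). In kay tumours the AGO3 and krimp calls were lost in a fit of the compared libraries alone (adjusted p = 0.059 and 0.065), and the spn-E call without control eye-antennal replicate 2 (adjusted p = 0.054). Of the 7 genes 3 passed in sd, 4 in CG6272, 4 in tai, 3 in Stat92E and 3 in kay tumours, where 31.3%, 43.7%, 34.1%, 26.7% and 12.8% of all genes passed.

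Over eye-antennal and leg libraries (for kay 1 eye-antennal library), the genotypes' mean levels of AGO3 ran, high to low, tumour (9.46 CPM), kay, CG6272, Stat92E, tai, sd (5.47) and control (2.53), and the range of each overlapped the next except sd and control. For spn-E the order was tumour (33.7 CPM), kay, sd, Stat92E, CG6272 (23.04), tai (11.9) and control (10.6), and the only neighbours without overlap were CG6272 and tai. For krimp it was control (7.27 CPM), tumour (2.34), tai, Stat92E, kay, CG6272 and sd (1.01), and only control and tumour did not overlap. For armi it was control (112 CPM), Stat92E, sd, CG6272, kay, tai and tumour (85.3), with no overlap between kay (98.0) and tai (89.4). For piwi, aub and zuc all neighbours overlapped.

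Other genes of small RNA pathways were counted in lists, to be read beside the 28.3% of all genes tested that were higher and the 24.5% that were lower in tumour discs. Of 9 further nuage and Tudor genes tested, 4 were higher and 1 lower in tumour discs: vret (0.77 ± 0.07) and SoYb (0.75 ± 0.15), Tudor proteins of piRNA production, fs(1)Yb (1.09 ± 0.38), a Tudor protein of the ovarian soma, and shu (0.29 ± 0.09), a cochaperone for loading PIWI proteins. Of 8 genes for the transcription and export of germline piRNA clusters 4 could be tested, 3 higher and 1 lower. del, whose product Deadlock binds Rhino at clusters, had 50.1, 67.8 and 98.0 CPM as lowest, median and highest values in tumour libraries, against 17.2, 25.1 and 33.0 CPM in control libraries (1.52 ± 0.13, adjusted p = 1.4e-07). cuff, another partner of Rhino, was also higher (1.28 ± 0.20), as was nxf3, the export factor of cluster transcripts (0.79 ± 0.14), although 59.9% of the exon bases of nxf3 are shared with ssp2 on the same strand. rhi itself had 0 to 3 reads in tumour and 0 to 3 reads in control libraries and was not tested.

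The remaining lists stand beside the same 52.8% of all genes that passed in either direction. Of 10 nuclear silencing factors, 2 were higher and 5 lower: nxf2 (0.68 ± 0.07) and its partner Nxt1 (0.81 ± 0.11) rose, and among those that fell were ctp (-0.48 ± 0.06) and Su(var)2-10 (-0.46 ± 0.06). Of nxf2's exon bases 630 are shared on the same strand with a copy of the transposon TART-A. Of those of ctp 11.4% are shared with copies of the transposons HMS-Beagle and jockey. Of 5 mitochondrial and trimming factors, 2 were higher and 2 lower. Hen1 (0.28 ± 0.09), the methyltransferase that modifies piRNA ends, and mino (0.25 ± 0.06) rose, and nbr (-0.33 ± 0.05) and daed (-0.30 ± 0.07) fell. Of mino's exon bases 42.4% are shared with genes on the opposite strand. Of 10 genes of the miRNA and siRNA pathways, 2 were higher and 6 lower, among them pasha (-0.89 ± 0.11) and loqs (-0.59 ± 0.08), partners of Drosha and Dicer. Of 10 repressors of germline genes, 2 were higher, Lint-1 (0.51 ± 0.08) and l(3)mbt (0.34 ± 0.06), and 5 lower, among them mip120 (-0.66 ± 0.10) and mip130 (-0.51 ± 0.04). The median log2 changes of these lists were 0.29 for nuage genes, 1.04 for the tested cluster genes, -0.17 for nuclear factors, 0.04 for mitochondrial factors, -0.22 for miRNA and siRNA genes and -0.18 for the repressors.

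In the hairpin genotypes del averaged 28.7 CPM in sd, 29.6 CPM in CG6272 and 47.6 CPM in tai tumours. Against tumour discs it fell by 1.05 ± 0.15 in sd (adjusted p = 0.00035), by 0.99 ± 0.15 in CG6272 (adjusted p = 0.00051) and by 0.59 ± 0.17 on the log2 scale in Stat92E tumours (adjusted p = 0.036), and did not pass in tai (-0.29 ± 0.17, adjusted p = 0.44) or kay tumours (-0.33 ± 0.27, adjusted p = 0.57). The difference between hairpins was not tested.

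**Figure D5:**
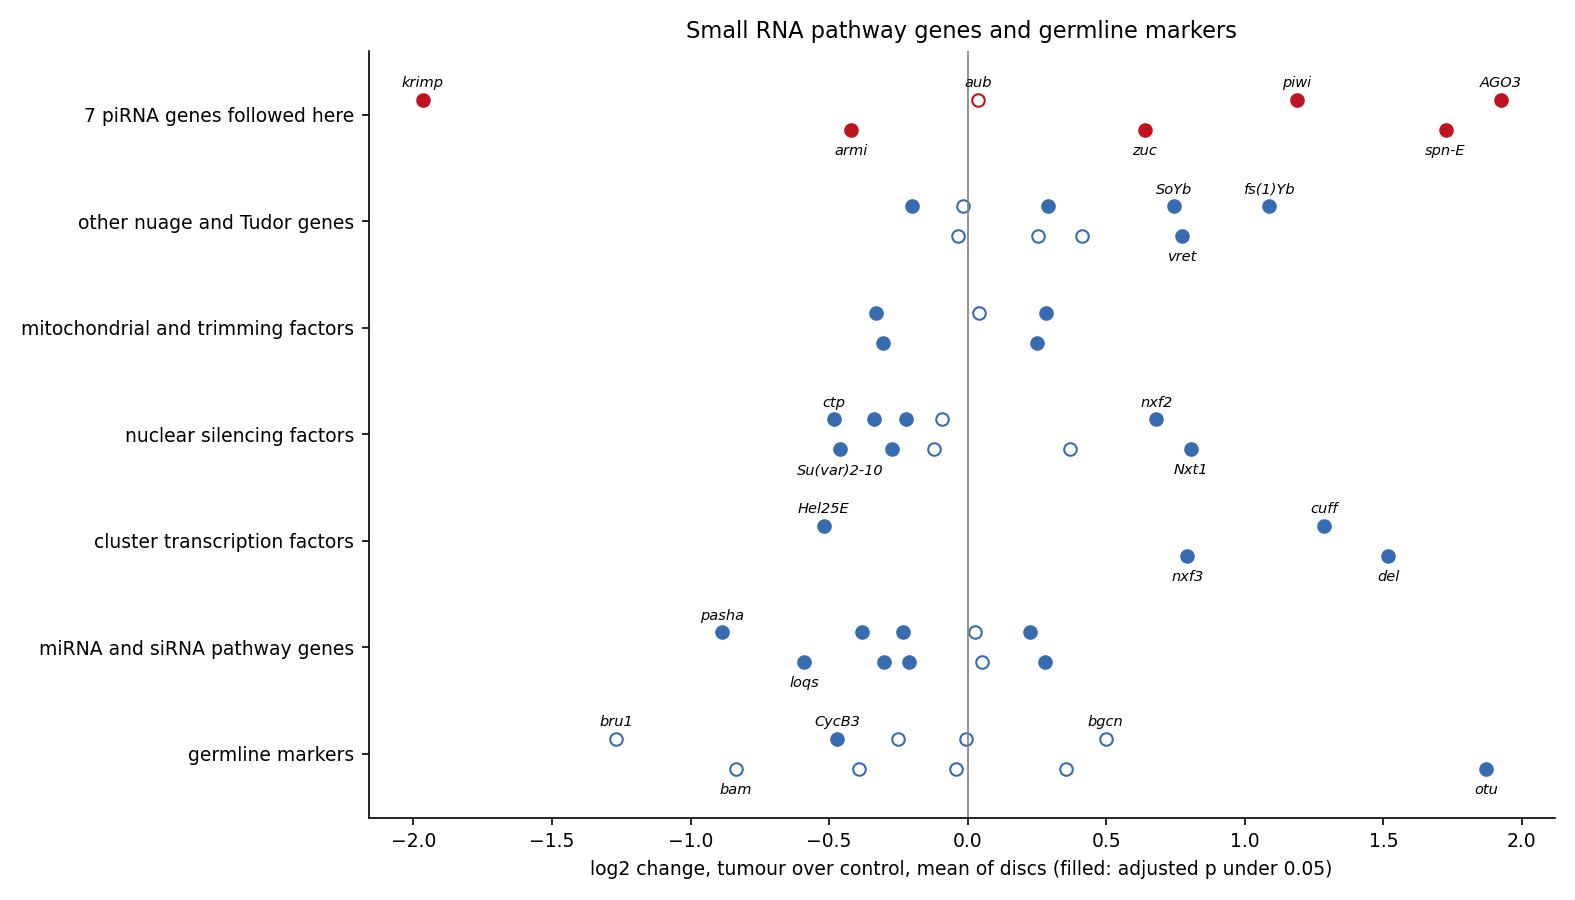
Log2 change in tumour over control discs (mean of the 3 discs) of the 7 piRNA genes and of the tested genes of other small RNA lists and germline markers, with filled circles for an adjusted p under 0.05 and names for changes over 0.45 in size. del, cuff and nxf3 lie to the right among cluster genes, at 1.52, 1.28 and 0.79, and krimp lies to the left, at -1.97.

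Markers of other cells were counted in the same comparison of tumour and control discs. The counts are to be read beside the 52.8% of all genes tested that passed, 28.3% as higher and 24.5% as lower. Of 10 germline markers tested, otu was higher (4 to 18 reads in tumour, 1 to 5 in control libraries, 1.87 ± 0.50) and CycB3 lower. The summed level of the 14 matched markers was 293 to 389 CPM in tumour and 326 to 411 CPM in control libraries, mostly from ovo, CycB3 and gcl. Among the defining ones, zpg had 0 or 1 read in each tumour library and 0 in all control libraries, osk 0 to 3 reads in tumour and 0 to 5 in control libraries, and nos 3 to 17 reads in tumour and 0 to 4 in control libraries. Of 6 gonadal soma markers 1 was higher, upd1 (3.61 ± 0.24), which discs also express, and 3 lower. Of 8 fat body markers 6 were lower (summed 46.8 to 290.1 CPM in tumour, 458 to 8481 CPM in control libraries), and of 6 hemocyte markers 3 were higher (156 to 333 CPM in tumour, 27 to 129 CPM in control libraries). The 7 disc epithelium markers were detected in all genotypes (summed 2618 to 3033 CPM in tumour, 2913 to 3355 CPM in control libraries), 2 higher and 3 lower in tumour discs. The part of these cells in the values of the 7 genes was not tested.

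The 7 genes did not share 1 pattern over the 15 groups of genotype and disc. Pearson's r of mean log2 CPM was 0.74 for piwi and spn-E, 0.67 for AGO3 and spn-E, -0.76 for AGO3 and krimp, 0.39 for piwi and AGO3, and 0.04 for piwi and aub. These values describe groups that share depth and genotype differences. The genes most like each member were Fit1 (r = 0.97), CG11791 and Tsp42Ee for AGO3, Zaf1 (0.89), Hus1-like and CG30339 for piwi, CG14834 (0.83), CG43062 and CG31231 for aub, CG10055 (0.93), CG15080 and NaPi-III for spn-E, CG12213 (0.93), CG42364 and CG11899 for krimp, Hat1 (0.97), mbo and Uba2 for armi, and shu (0.92), CG14572 and ND-MNLL for zuc.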

How the data were processed

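Gene counts were made and deposited by the authors and are used as raw counts. TopHat2, HTSeq and the build dm3 are named per the submitters' processing notes. Of versions, annotation release and strand, nothing is given in the sources used here. Each of the 27 libraries in 15 groups has 15348 genes and 5 summary lines, which were left out of library sizes. Symbols were matched by gene identifier, and exon lengths and overlaps were computed from the exon coordinates of the BDGP6 annotation. No coordinates of the reads or of dm3 were used.

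The 9814 genes that reached 1 CPM in 2 or more libraries were tested in edgeR 4.0.16 (TMM, robust quasi-likelihood F-test, 1 mean per group, 12 residual degrees of freedom), with Benjamini-Hochberg adjustment over all of them and a threshold of 0.05. For a group of 1 library the spread of the other groups was assumed. Errors are SE for log2 changes, computed as the absolute change over the square root of F. Alternatives used DESeq2 1.42.0, limma 3.58.1 (voom, block correlation 0.44), other filters, fewer libraries and each library left out. The eye-antennal libraries titled sd were kept under their title. On simulated counts for tumour against control, 72% of 50 genes changed 2-fold were recovered. For the hairpin genotypes against tumour it was 44% (kay) to 76% (Stat92E). Unlike these data, the simulation changed few genes and had no correlation within a dissection, so recovery here can differ.

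The labels tie replicate numbers to dissections within a genotype, and the block by dissection paired same-numbered discs of 1 genotype. In libraries titled sd the labelled days differ within a number. Eye-antennal replicate 1 and leg replicate 2 have days 7 to 8, and the others have day 8. The block may thus join different dissections there, and its correlation of 0.44 includes those pairs. Same-numbered libraries of 1 genotype had residual correlations of median 0.17 over 8 pairs of groups, and of different genotypes -0.04 over 58. Members, lists and tests were chosen with earlier results of these data known. All members are given in every comparison. From each other list up to 4 genes past the threshold in tumour against control were to be named, and for likeness the 3 genes with the highest r; bam, pgc, rhi, osk, nos and zpg were named after their values were seen. Of 105 genes in the 12 other lists 102 were matched. P-values measure the spread between these libraries, and count discs of 1 dissection as independent except with the block by dissection.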

Additional observations from a re-analysis of the deposited data

Results flagged for a closer look

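Reads aligned to several places, which enter no gene count, made up a median of 68.0% of the lines in tumour libraries (54.4% to 76.1%) and 16.8% in control libraries (15.8% to 22.9%). The libraries titled sd had a median of 54.7%, those of CG6272 28.0%, those titled tai 50.0%, those of Stat92E 52.7% and the kay library 61.5%. This is a signal outside the gene counts that was above the level in control libraries, and its part in the results was not tested.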

How the results depend on the processing

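Of 119 member results 48 passed the threshold. Of these 28 kept their direction and their side of it under every alternative, 20 lost it under at least 1, and 1 changed sign. The sign change was that of armi in CG6272 tumours, with Stat92E libraries in place of tumour libraries. For tumour against control as the mean of discs, no alternative moved the count of members past the threshold from 6. The causes of the changes below were not tested, except that fits with fewer libraries have fewer degrees of freedom.

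In fits of the compared libraries alone, the members past the threshold were 2 in eye-antennal, 3 in leg and 3 in wing discs for tumour against control, 0 for CG6272, 0 for tai and 0 for Stat92E against tumour, and 1 for kay against control. The genes past it were 1822 in leg and 1098 in wing discs, 1193 for sd, 673 for CG6272, 12 for tai, 222 for Stat92E and 0 for kay against tumour (edgeR), and armi in sd against control was 0.015. By the DESeq2 test 873 genes differed in their tumour effect among discs, and 627 genes with 2 members passed for tai and 258 for kay against tumour. Without a count filter 1 member differed among control discs.

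With the replicate block by dissection, 788 genes and 1 member (krimp) differed in their tumour effect among discs and 2343 genes among control discs. The block gave 1145 genes for sd, 721 with 1 member for CG6272, 84 for tai, 757 for Stat92E and 39 for kay against tumour, and 2036 for sd against control. With replicate number as a block, 11 genes passed for kay against tumour, piwi in Stat92E against control was -0.023, and no other count moved by over 1.5 times. Numbers do not pair libraries of different genotypes, and in libraries titled sd the labelled days differ within a number. No paired analysis was possible for day 11 against day 9 because day and number coincide.

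Against libraries of the same form of file name, 480 genes with 1 member passed for CG6272 against Stat92E, and 4 for kay. These comparisons set hairpin genotypes against each other and hold no tumour library. Signs changed for armi (-0.11) and AGO3 (0.23) in CG6272, for spn-E (0.26), piwi (0.15) and krimp (0.16) in Stat92E, and for spn-E (0.37), piwi (0.41) and armi (-0.17) in kay libraries. With the leg libraries alone as sd, spn-E was 0.28 against tumour, aub 0.22 against control, and 2016 genes passed against control. With the eye-antennal libraries titled sd counted as kay, 323 genes passed against tumour, and aub was -0.14 and AGO3 -0.22.

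Leaving out each library in turn gave the following lowest and highest values.
For tumour against control these were 1785 to 3050 genes and 2 to 5 members in eye-antennal and 1836 to 3087 genes in wing discs. Among discs 171 to 425 genes differed in the tumour effect, and 684 to 1247 genes and 0 to 3 members among control discs. Against tumour they were 1251 to 2272 genes for sd, 740 to 1717 with 1 to 3 members for CG6272, 86 to 401 with 1 to 2 members for tai, 750 to 1504 with 1 to 2 members for Stat92E and 5 to 29 for kay. Against control they were 1966 to 3512 genes for tai, 1621 to 2728 for Stat92E and 609 to 1334 for kay, and 393 to 1270 between days. Changes that crossed 0, none of them past the threshold as reported, were those of aub in tumour against control (-0.14 to 0.25, in leg discs -0.18 to 0.90), of aub (-0.70 to 0.037) and spn-E (-0.17 to 0.13) in sd, AGO3 in CG6272 (-0.20 to 0.057), aub in tai (-0.12 to 0.30) and aub in kay (-0.025 to 0.79) against tumour. Against control they were piwi (-0.072 to 0.60) and armi (-0.056 to 0.041) in sd, piwi in CG6272 (-0.19 to 0.021), aub (-0.64 to 0.081) and spn-E (-0.055 to 0.23) in tai, and piwi (-0.068 to 0.17) and armi (-0.071 to 0.048) in Stat92E. Between days they were piwi (-0.39 to 0.01) and zuc (-0.096 to 0.040).

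Depth limits aub, at 8 to 97 reads a library, and piwi, at 11 to 70. It also limits krimp, at 22 to 37 reads in tumour libraries and 6 to 19 reads in sd tumours.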
